A study of Mus musculus with 12 samples.

Results

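Small nucleolar RNAs were examined in osteoblasts and endothelial cells sorted from mouse long bones with and without breast cancer metastases. The 51 genes are those whose only annotated symbol on the array begins with Snora or Snord and a number, out of 19937 genes measured. They comprise 31 C/D box genes (Snord) and 20 H/ACA box genes (Snora). They were chosen by name, and measured values entered only where a gene had more than 1 probe set, here Snora3 and Snora21, each taken at its brightest set by the mean of the 12 arrays. All 51 symbols were found among the RefSeq genes of GRCm38.p6, where 50 are typed as snoRNA and Snord73b as snRNA. A further 22 probe sets that name a snoRNA together with other genes were not used.

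The arrays form 4 groups of 3 biological replicates. Endothelial cells from tumor-bearing mice, endothelial cells from tumor-free mice, osteoblasts from tumor-bearing mice and osteoblasts from tumor-free mice were compared. All mice were female NOD SCID animals, an immunodeficient strain, and no age is given in the labels. Tumor-bearing animals had received 200000 MDA-MB231 scp1833 cells, a human breast cancer line, into the heart, and metastases grew in the bones for about 2 weeks. Both populations were sorted as negative for GFP, TR119 and CD45. Osteoblasts, the cells that form bone, were further negative for SCA1 and CD31 and positive for CD51. Endothelial cells, which line blood vessels, were positive for SCA1 and CD31.

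snoRNAs are short nuclear RNAs that guide chemical modification of other RNAs, above all ribosomal RNA. Together with the methyltransferase fibrillarin, C/D box snoRNAs direct methylation of the ribose, and H/ACA box snoRNAs with dyskerin direct the change of uridine to pseudouridine. A few, such as Snord118 (U8), Snord22 (U22) and the Snora73 pair (U17), act in the cleavage or folding of the ribosomal RNA precursor instead. In mammals most are cut out of introns of host genes, many of which encode ribosomal proteins or translation factors or are non-coding transcripts such as Gas5 and the Snhg genes.

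The measured snoRNAs followed this arrangement. C/D box genes were 45 to 148 nt long with a median of 68.0 nt, and H/ACA box genes were 61 to 205 nt long with a median of 125.0 nt. By the RefSeq positions 50 of the 51 lie within the span of another gene, here called the host, and these hosts number 40. Protein-coding genes held 37 of the snoRNAs, among them 21 in genes for ribosomal proteins, and long non-coding RNA genes held 13. Snord118 alone lay in no other gene. A host was shared by 20 snoRNAs, 2 in each of 10 hosts.

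Start regions are shown for hosts of the snoRNAs that passed a test, because transcripts of ribosomal protein genes and of Gas5 are known to begin with a run of pyrimidines. Each sequence holds 20 bases before and 30 bases from an annotated transcription start (RefSeq, GRCm38.p6), 5′ to 3′ on the host's strand, and capitals mark the unbroken run of C or T from the start base.
Rpl27a (host of Snora3), chr7:109519175-109519224, plus strand: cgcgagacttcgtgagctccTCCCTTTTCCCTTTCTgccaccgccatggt
Gm36220 (host of Snord104), chr11:106500895-106500944, plus strand: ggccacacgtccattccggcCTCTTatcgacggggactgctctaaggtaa
Gas5 (host of Snord47), chr1:161034581-161034630, plus strand: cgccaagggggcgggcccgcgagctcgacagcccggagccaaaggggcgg
Gas5, other start, chr1:161035146-161035195, plus strand: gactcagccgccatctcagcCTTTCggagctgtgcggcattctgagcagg
2410006H16Rik (host of Snord49b), chr11:62602857-62602906, plus strand: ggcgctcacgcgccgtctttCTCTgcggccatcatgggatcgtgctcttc
1110038B12Rik (host of Snord52), chr17:34952442-34952491, minus strand: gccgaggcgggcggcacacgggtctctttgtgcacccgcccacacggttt
1110038B12Rik, other start, chr17:34952439-34952488, minus strand: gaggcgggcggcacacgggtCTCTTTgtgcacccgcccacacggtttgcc
A C at the start followed by 4 bases that are each C or T was present for 6 of the 30 hosts listed with a start, and for 813 of 27025 genes there (3.01%). Rpl27a begins with T and does not meet that rule, although its run of 16 pyrimidines is the longest shown.

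Across the series the sorted cells carried their markers. All 7 osteoblast markers measured, of 9 listed, were lower and all 9 endothelial markers were higher in endothelial cells than in osteoblasts, in tumor-bearing and in tumor-free mice alike (limma, adjusted p under 0.05). Over all genes the replicates correlated least in tumor-free osteoblasts (0.875 to 0.932), against 0.957 to 0.986 in the other groups. Tumor-free osteoblast arrays also differed in other cell types' genes. The mean of 9 neutrophil markers was 5.20 to 6.46 in tumor-bearing osteoblasts and 5.58, 7.95 and 7.50 in tumor-free osteoblasts. For 8 macrophage markers it was 5.23 to 7.48 in tumor-bearing and 5.37, 8.59 and 8.07 in tumor-free osteoblasts. For 6 chondrocyte markers it was 9.90 to 10.67 in tumor-bearing and 10.00, 8.49 and 6.47 in tumor-free osteoblasts. The part of these differences in the snoRNA results below was not tested.

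The snoRNAs varied far more between replicates than other genes did. Values are log2 expression as deposited, so a difference of 1 is a doubling. The SD within groups, pooled over the 4 groups, had a median of 0.72 over the 51 snoRNAs and of 0.22 over all genes. It exceeded 0.5 for 39 of 51 snoRNAs (76.5%) and for 12.2% of all genes. C/D box and H/ACA box genes had the same median, 0.72. The spread was wide in every group, with a median SD of 0.55 in tumor-bearing and 0.52 in tumor-free endothelial cells, and of 0.41 in tumor-bearing and 0.78 in tumor-free osteoblasts. The same medians over all genes were 0.16, 0.14, 0.19 and 0.25. Across the 51 snoRNAs the spread had a rank correlation of -0.02 with the mean value and of -0.08 with the length of the RNA.

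**Figure D1:**
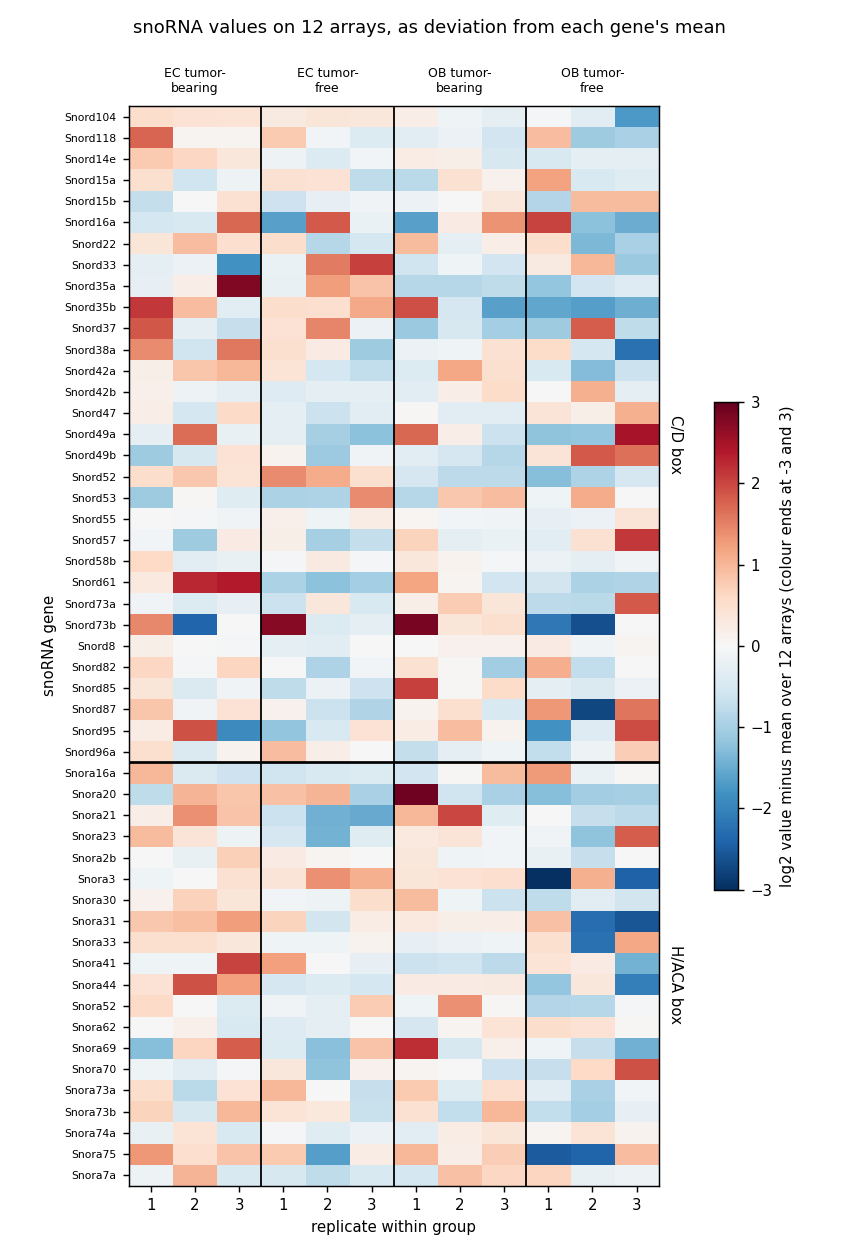
Heatmap of the 51 snoRNAs (rows, C/D box above H/ACA box) on 12 arrays (columns, 3 replicates in each of 4 groups; EC, endothelial cells; OB, osteoblasts). Colour gives the log2 value minus the gene's mean over the 12 arrays, and single arrays stand out within a group for many genes, as for Snord87 in tumor-free osteoblast replicate 2.

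Mean values of the snoRNA probe sets ran from 2.77 (Snord58b) to 10.73 (Snord104), and 39 of the 51 passed the filter on low values, 24 C/D box and 15 H/ACA box genes. To be tested, a gene had to exceed the median probe set in 3 or more of the 12 arrays. Brightness was not compared between genes, since a probe set's value depends on its probes. Snord55 and Snord8 were the steadiest, with SDs of 0.18 over the 12 arrays, and Snord58b had 0.28. Among H/ACA box genes Snora74a, Snora2b and Snora62 had the smallest SDs over the arrays, 0.31, 0.34 and 0.35. At the other end stood Snord73b, Snord16a and Snord35b with 1.80, 1.41 and 1.39, and Snora75, Snora3 and Snora20 with 1.37, 1.36 and 1.30.

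Snord73b, one of a pair in Rps3a1, shows what such a spread looks like. It measured 6.72, 2.88 and 5.27 in tumor-bearing endothelial cells and 8.0, 4.85 and 5.00 in tumor-free endothelial cells. Osteoblasts gave 8.12, 5.63 and 5.75 in tumor-bearing and 3.12, 2.63 and 5.25 in tumor-free mice. Replicates of 1 group thus spanned 2.49 to 3.84 log2 units, and the endothelial groups overlapped. Snord16a, in Rpl4, measured 4.88, 4.96 and 7.14 in tumor-bearing and 3.79, 7.26 and 5.21 in tumor-free endothelial cells, and 3.78, 5.65 and 6.76 in tumor-bearing and 7.45, 4.18 and 3.92 in tumor-free osteoblasts. All 4 of its groups overlapped. Snord8, by contrast, stayed between 5.87 and 6.46 on all 12 arrays.

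Wide gaps within 3 replicates were most frequent in tumor-free osteoblasts. There 18 of the 51 snoRNAs (35.3%) spanned more than 2 log2 units, against 5.52% of all genes. In tumor-bearing osteoblasts 8 snoRNAs did so (15.7%, all genes 1.02%), in tumor-bearing endothelial cells 10 (19.6%, all genes 0.271%) and in tumor-free endothelial cells 6 (11.8%, all genes 0.396%). The array with the gap was not the same for every gene. Snord87, hosted by Snhg6, measured 7.88, 3.85 and 8.18 in the 3 tumor-free osteoblast replicates, while Snora31, hosted by Tpt1, measured 9.93, 6.77 and 6.50. Replicate 2 of that group was the lowest of the 12 arrays for 11 snoRNAs (21.6%, all genes 6.34%). Replicate 1 was the lowest for 10 (19.6%, all genes 10.1%) and replicate 3 for 6 (11.8%, all genes 10.4%). Replicate 3 was also the highest for 10 (19.6%, all genes 21.0%), so its shares were near those of all genes.

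**Figure D2:**
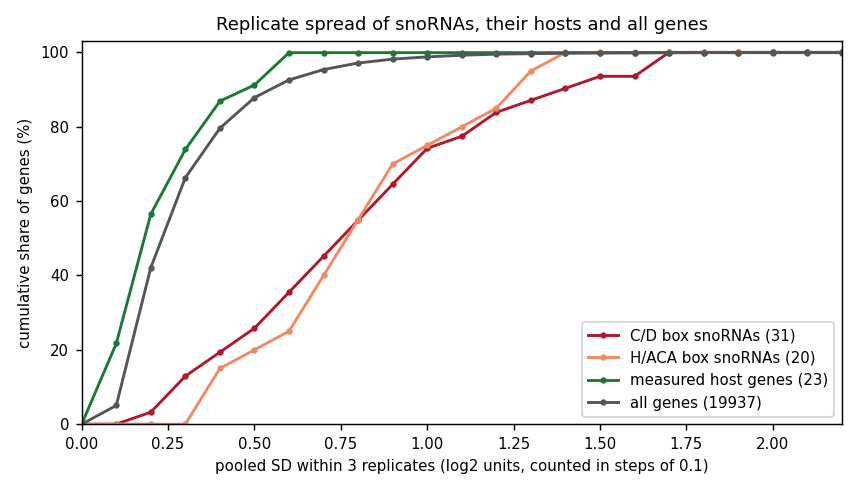
Cumulative share of genes (%, vertical axis) by the SD within 3 replicates pooled over the 4 groups (log2 units, horizontal axis), for C/D box snoRNAs, H/ACA box snoRNAs, the 23 measured host genes and all genes. Both snoRNA curves lie to the right, with medians of 0.72 against 0.22 for all genes, and the hosts lie with the other genes.

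In tumor-bearing osteoblasts 1 of the 39 tested snoRNAs was lower than in tumor-free osteoblasts and none was higher. With limma and Benjamini-Hochberg adjustment over the 12430 genes tested, 4.59% of genes passed at 0.05 (4.01% higher, 0.571% lower). At an unadjusted p under 0.05 there were 9 snoRNAs, 7 higher and 2 lower, or 9 of 39 against 24.4% of genes. Over all 51, the median difference was 0.24, against -0.14 over all genes, and 32 snoRNAs were on the positive side, against 35.8% of all genes. Those figures include genes below the filter. Over the genes tested, the median was 0.21 for snoRNAs and -0.00 for all genes. Of these, 24 of 39 snoRNAs and 6203 of 12430 genes were positive. H/ACA box genes had a median of 0.68 with 15 of 20 positive, and C/D box genes 0.02 with 17 of 31 positive. Under quantile normalization these counts were 13 and 18, and under median centering 15 and 20. As these are bulk samples, fewer cells with a snoRNA and less of it per cell cannot be told apart.

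Snord49b, a C/D box snoRNA in the non-coding gene 2410006H16Rik, was the one that fell. It measured 8.13, 7.94 and 7.59 in tumor-bearing osteoblasts and 8.84, 10.30 and 10.09 in tumor-free osteoblasts. The tumor-bearing arrays all lay below the tumor-free ones, and the group means were 7.89 ± 0.27 and 9.74 ± 0.79 (SD, n = 3 each). The log2 difference was -1.86 ± 0.46 (SE), a 3.63-fold lower level, with an adjusted p of 0.0478 (limma), just inside the threshold. The direction was the same whichever array was left out (-2.31 to -1.58), but the adjusted p stayed under 0.05 in only 2 of those 12 fits, those without replicate 1 of tumor-free osteoblasts or replicate 3 of tumor-bearing endothelial cells. It was 0.0535 after median centering of the arrays. Snord49a, from the same host, measured 7.72, 6.20 and 5.35 in tumor-bearing and 4.79, 4.83 and 8.46 in tumor-free osteoblasts, a log2 difference of 0.40 with overlapping groups whose sign turned with the array left out (-0.25 without tumor-bearing replicate 1).

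The nearest to Snord49b was Snord42a, in Rpl23a, with an adjusted p of 0.123 (limma). It measured 4.76, 6.35 and 5.67 in tumor-bearing and 4.72, 3.87 and 4.54 in tumor-free osteoblasts, a log2 difference of 1.22 ± 0.43 (SE). Its groups did not overlap, as in 3 other tested snoRNAs, Snord73b on the higher side and Snord47 and Snord49b on the lower. That is 4 of 39, against 24.7% of all genes tested.

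Other snoRNAs of both kinds had large positive differences that did not pass the test. The largest was that of Snord73b, 2.83 ± 1.16 (SE) on the log2 scale with an adjusted p of 0.167 (limma), and Snord35b had 1.5 with overlapping groups. Snora75, hosted by nucleolin (Ncl), measured 8.26, 7.46 and 7.99 in tumor-bearing and 4.77, 4.86 and 8.18 in tumor-free osteoblasts. Snora3 measured 8.26, 8.33 and 8.40 in tumor-bearing and 4.83, 8.97 and 5.47 in tumor-free osteoblasts. Snora31 measured 9.35, 9.23 and 9.26 in tumor-bearing and 9.93, 6.77 and 6.50 in tumor-free osteoblasts. In each case the tumor-bearing arrays were close together and 1 tumor-free array lay among or above them. The log2 differences were 1.97, 1.91 and 1.55, with adjusted p of 0.185, 0.182 and 0.211 (limma). Which snoRNAs passed changed with the array left out. Without tumor-free osteoblast replicate 1, 3 of 39 passed, Snora31, Snord22 and Snord49b, where 12.7% of genes did. Without replicate 2, 3 passed, Snora3, Snora33 and Snora44, where 7.06% of genes did. Snora75 passed without replicate 3, with an adjusted p of 0.0251 (limma), and Snora21 without tumor-bearing osteoblast replicate 3, with 0.0436. In those fits 2.93% and 3.02% of genes passed.

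**Figure D3:**
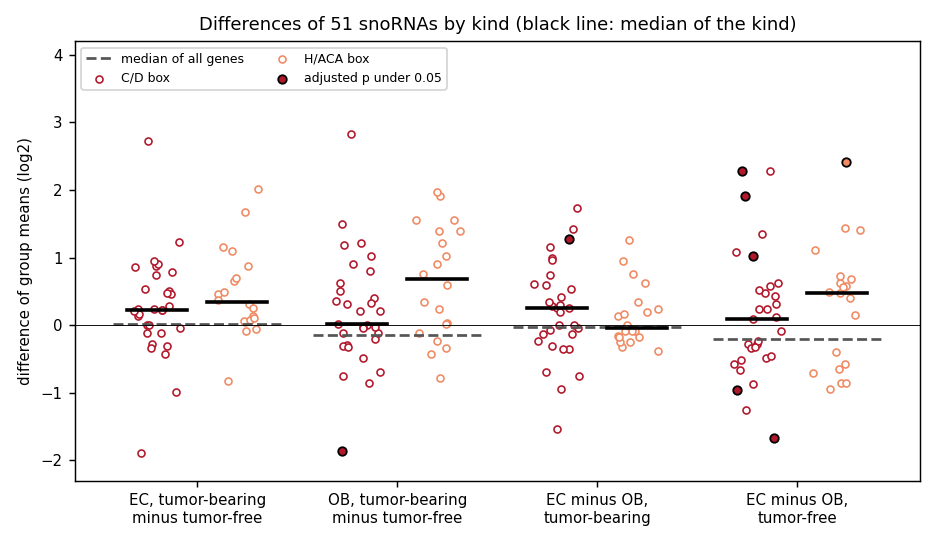
Difference of group means (log2, vertical axis) for the 51 snoRNAs in 4 comparisons, with C/D box and H/ACA box genes side by side (EC, endothelial cells; OB, osteoblasts). Filled points passed an adjusted p of 0.05, among them Snord49b at -1.86 in osteoblasts, black lines are medians of each kind, and dashed lines the median of all genes.

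In tumor-bearing endothelial cells none of the 39 snoRNAs passed against tumor-free endothelial cells (limma), in a comparison where 0.0241% of genes did (0.0161% higher, 0.00805% lower). At an unadjusted p under 0.05 there were 5 snoRNAs, against 6.93% of genes. The median difference over all 51 was 0.24, against 0.02 over all genes, and 37 were positive, against 53.3% of all genes. H/ACA box genes had 17 of 20 positive with a median of 0.35, and C/D box genes 20 of 31 with a median of 0.23. Both medians stayed positive under quantile normalization and median centering. Arrays of the 2 groups did not overlap for 7 tested snoRNAs, all of them higher with tumor, against 7.84% of genes on that side and 18.8% on both. They were Snora21, Snora23, Snora31, Snora33 and Snora44 of the H/ACA box kind and Snord14e and Snord104 of the C/D box kind.

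Snora21, in the ribosomal protein gene Rpl23, had the largest of these differences. It measured 5.90, 7.08 and 6.57 in tumor-bearing and 5.07, 4.28 and 4.19 in tumor-free endothelial cells, and all tumor-bearing arrays were above all tumor-free ones. The log2 difference was 2.01 ± 0.53 (SE) with an adjusted p of 0.362 (limma). Its second probe set gave 1.11. Snora44, in Snhg12, measured 7.88, 9.35 and 8.68 in tumor-bearing and 6.93, 7.02 and 6.92 in tumor-free endothelial cells. The tumor-free arrays were nearly equal and all lower, and the log2 difference was 1.68 ± 0.50 with an adjusted p of 0.445 (limma).

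Snord14e, a copy of U14 in the chaperone gene Hspa8, was the closest to the threshold. It measured 11.10, 10.95 and 10.66 in tumor-bearing and 10.18, 9.91 and 10.25 in tumor-free endothelial cells, with no overlap. The log2 difference was 0.79 ± 0.20 (SE) with an adjusted p of 0.353 (limma). With array quality weights 2 snoRNAs passed, Snord14e with an adjusted p of 0.0200 and Snora21 with 0.0437 (limma), and 3.61% of genes passed in that fit.

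The extremes of the whole array in this comparison were snoRNAs. Among all 19937 genes, Snord61 had the largest positive difference and Snord33 the largest negative one. Snord61, in Rbmx, measured 3.77, 5.73 and 5.84 in tumor-bearing and 2.52, 2.23 and 2.44 in tumor-free endothelial cells, so that all tumor-bearing arrays were higher. Its log2 difference of 2.72 did not enter the test because the gene was below the filter. With no filter its adjusted p was 0.190 (limma). Snord33, in Rpl13a, measured 4.89, 4.97 and 3.33 in tumor-bearing and 4.96, 6.70 and 7.21 in tumor-free endothelial cells. Its groups overlapped by 1 array, and the log2 difference was -1.89 ± 0.66 (SE) with an adjusted p of 0.560 (limma). Snord35a, from the same host, differed by 0.28, and by -0.66 without tumor-bearing replicate 3. Of the 100 genes with the largest differences in either direction, 4 were snoRNAs, the others being Snora21 and Snora44. That is 7.84% of the 51, while 100 genes are 0.502% of all. The ranking is by size alone and is not scaled by replicate spread. The median pooled SD was 0.72 for snoRNAs and 0.22 for all genes.

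**Figure D4:**
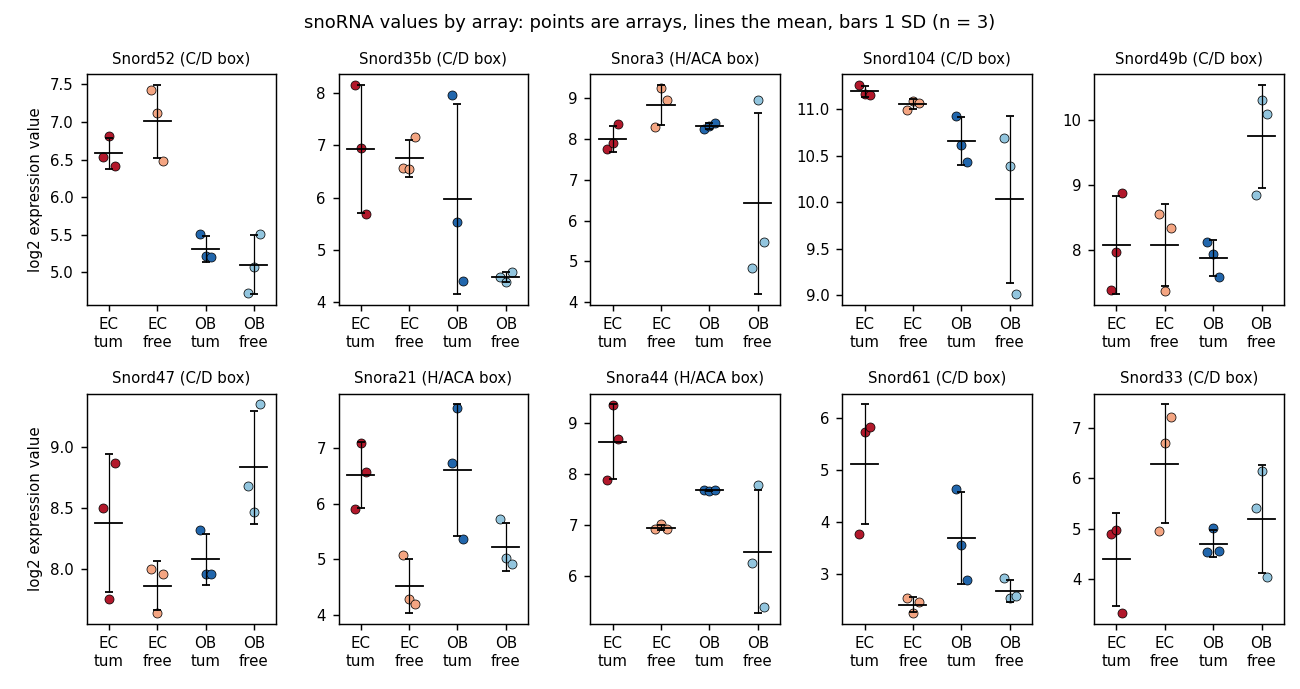
log2 expression values (vertical axis) of 10 snoRNAs on each array, in tumor-bearing (tum) and tumor-free (free) endothelial cells (EC) and osteoblasts (OB), with points for arrays, long lines for means and bars of 1 SD (n = 3). Snord52 is separated by cell type in both conditions, while Snora3 and Snord104 have 1 or 2 low tumor-free osteoblast arrays.

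The endothelial and osteoblast comparisons share no arrays, so their signs can be set side by side, though the sample titles do not say whether they share mice. Of the 51 snoRNAs, 25 were higher with tumor in both cell types (49.0%, all genes 16.4%), 7 lower in both and 19 opposite. All genes here include those below the filter. In osteoblasts 35.8% of all genes were positive, but 6203 of the 12430 tested. Of the 20 H/ACA box genes, 12 were higher in both and none lower in both, and of the 31 C/D box genes 13 were higher and 7 lower in both. Snora21, Snora44, Snora75 and Snord61 had log2 differences of at least 1 in both cell types, 4 of 51 (7.84%), against 0.336% of all genes. Such sizes are not scaled by replicate spread, and the median pooled SD was 0.72 for snoRNAs and 0.22 for all genes. In endothelial cells the differences of these 4 snoRNAs were 2.01, 1.68, 1.10 and 2.72, and in osteoblasts 1.39, 1.21, 1.97 and 1.02. Snora21, Snora44 and Snora75 did not pass in either comparison, and Snord61 was below the filter and not tested. All 4 were singled out after their values were seen.

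The difference between the tumor effects of the 2 cell types did not pass for any snoRNA (limma), where 0.209% of genes passed (0.177% higher, 0.0322% lower). At an unadjusted p under 0.05 there were 4, Snord47, Snord49b, Snora3 and Snord73b, against 16.0% of genes. For Snord49b the osteoblast difference minus the endothelial one was -1.85 ± 0.66 (SE) with an adjusted p of 0.223 (limma), since the endothelial groups had equal means of 8.08. For Snora3 it was 2.74 ± 1.15 with an adjusted p of 0.282, and for Snord73b 3.82 ± 1.64 with 0.287 (limma). Without tumor-free osteoblast replicate 2, Snora3 and Snora33 passed, where 1.79% of genes did, and without replicate 1, Snora31 did, where 4.38% of genes did.

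Between cell types in tumor-free mice 6 of 39 snoRNAs passed, 4 higher and 2 lower in endothelial cells than in osteoblasts, where 31.0% of genes passed (18.2% higher, 12.7% lower; limma). The share of snoRNAs that passed was thus below that of all genes. Their median absolute log2 difference was 0.64, against 0.45 over the genes tested. Their median SE was larger, 0.52 against 0.23. Scatter between arrays also raises absolute differences, so these medians cannot show whether the underlying differences were smaller or larger. The snoRNAs called higher were Snord52, Snora3, Snord104 and Snord35b, and those called lower Snord49b and Snord47. After quantile normalization 2 were higher and 2 lower, and after median centering 4 were higher and 1 lower. Of all genes 25.7% and 29.3% passed in those fits. The median difference over all 51 was 0.24, against -0.21 over all genes. Median centering moved that median of all genes to -0.05, and the snoRNA median with it to 0.39, and without tumor-free osteoblast replicate 2 the snoRNA median was 0.01. Over the genes tested in the main fit, the median was 0.32 for snoRNAs and 0.03 for all genes. Arrays did not overlap for 5 snoRNAs on the higher and 4 on the lower side, 9 of 39 against 47.3% of genes.

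Snord52, a C/D box snoRNA in the non-coding gene 1110038B12Rik, was the steadiest of these. It measured 7.43, 7.12 and 6.48 in tumor-free endothelial cells and 4.73, 5.07 and 5.51 in tumor-free osteoblasts. All endothelial arrays were about 1 log2 unit or more above all osteoblast arrays. The log2 difference was 1.91 ± 0.26 (SE), 3.75-fold, with an adjusted p of 0.000503 (limma). In tumor-bearing mice Snord52 measured 6.53, 6.81 and 6.41 in endothelial cells and 5.51, 5.22 and 5.21 in osteoblasts. The groups again did not overlap, and the log2 difference was 1.27 ± 0.26, 2.41-fold, with an adjusted p of 0.00679 (limma). It passed under all 21 alternative settings in each condition, with differences of 1.70 to 2.18 and of 1.16 to 1.37.

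The other calls in tumor-free mice did not hold under every setting. Those of Snora3, Snord104 and Snord35b were lost in most of the fits with a single array left out. Those of Snord47 and Snord49b were lost in fewer of them. Snord35b measured 6.56, 6.54 and 7.16 in endothelial cells and 4.47, 4.38 and 4.57 in osteoblasts. These groups lay far apart, yet the adjusted p was 0.0479 (limma) for a log2 difference of 2.28 ± 0.79 (SE), because the SE is shared with the tumor-bearing groups. There Snord35b ranged from 5.69 to 8.15 in endothelial cells and from 4.41 to 7.97 in osteoblasts. Snora3 measured 8.29, 9.26 and 8.96 in tumor-free endothelial cells and 4.83, 8.97 and 5.47 in tumor-free osteoblasts. Its groups overlapped, and the log2 difference was 2.42 ± 0.81 with an adjusted p of 0.0446 (limma). The second probe set of Snora3 gave 1.81. With averaged probe sets the adjusted p was 0.0606, after quantile normalization 0.0717 and with the compared groups alone 0.152 (limma).

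Snord104, in the non-coding gene Gm36220, measured 10.99, 11.09 and 11.07 in tumor-free endothelial cells and 10.69, 10.39 and 9.01 in tumor-free osteoblasts. All endothelial arrays were higher, and the log2 difference was 1.02 ± 0.35 (SE) with an adjusted p of 0.0453 (limma). Without osteoblast replicate 3 the log2 difference was 0.51. After quantile normalization the adjusted p was 0.0678, and with the compared groups alone 0.143 (limma). In tumor-bearing mice Snord104 measured 11.26, 11.16 and 11.15 in endothelial cells and 10.93, 10.61 and 10.43 in osteoblasts, again without overlap and with a log2 difference of 0.53.

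Snord49b and Snord47 were lower in tumor-free endothelial cells. Snord49b measured 8.55, 7.37 and 8.34 there against the 8.84, 10.30 and 10.09 of tumor-free osteoblasts, a log2 difference of -1.66 ± 0.46 (SE) with an adjusted p of 0.0220 (limma). Snord47, one of the snoRNAs of Gas5, measured 8.0, 7.64 and 7.96 in endothelial cells and 8.68, 8.47 and 9.35 in osteoblasts. Neither gene's groups overlapped, and for Snord47 the log2 difference was -0.96 ± 0.29 with an adjusted p of 0.0318 (limma). In tumor-bearing mice the log2 differences between cell types were 0.19 for Snord49b, whose sign turned without endothelial replicate 3 (-0.21), and 0.30 for Snord47. Snora62, in Rpsa, was the next outside the threshold, at -0.57 with an adjusted p of 0.103 (limma). The number of snoRNAs passing ranged from 1 without tumor-free endothelial replicate 2 to 8 without tumor-free osteoblast replicate 1 or 2, and was 2 without tumor-free osteoblast replicate 3 or tumor-free endothelial replicate 1 or 3. It was 3 without replicate 2 of either tumor-bearing group. Of all genes, 18.2% passed without tumor-free endothelial replicate 2, and 30.5% and 31.5% without tumor-free osteoblast replicate 1 and 2. Without tumor-free osteoblast replicate 3, 25.8% passed, and without tumor-free endothelial replicate 1 and 3, 20.4% and 18.8%. Without replicate 2 of tumor-bearing osteoblasts or endothelial cells, 27.2% or 27.6% of genes passed.

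Between cell types in tumor-bearing mice Snord52 was the 1 snoRNA of 39 that passed, where 14.9% of genes did (8.13% higher, 6.79% lower; limma). At an unadjusted p under 0.05 there were 3, with Snord14e and Snord35a, against 25.8% of genes. Snord14e measured 11.10, 10.95 and 10.66 in endothelial cells and 10.54, 10.50 and 9.85 in osteoblasts, with no overlap. Its log2 difference was 0.61 ± 0.20 (SE) with an adjusted p of 0.0747 (limma), the next outside the threshold. Arrays did not overlap for 8 snoRNAs, all higher in endothelial cells, against 19.5% of genes on that side and 35.9% on both. Without tumor-free osteoblast replicate 2 or 3, 2 snoRNAs passed, Snord52 with Snora33 or with Snord104, where 16.1% or 16.7% of genes did.

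Host genes varied less between replicates than their snoRNAs. Of the 40 hosts 23 were measured, and they hold 27 of the snoRNAs. In those 27 pairs the median pooled SD was 0.80 for the snoRNA and 0.18 for the host, and the snoRNA had the larger SD in every pair. Of the hosts, 15 had means of 10 or more, near the upper end of the table (its highest value is 12.94), and whether their signal was compressed there was not tested. For the 8 hosts below 10 the median SD was 0.32, against 0.78 for their 8 snoRNAs, and the snoRNA again had the larger SD in all 8 pairs, a split made after the values were seen. No measured host passed in either tumor comparison (limma), where 4.59% and 0.0241% of genes did. Between cell types in tumor-free mice Hspa8, Rps3 and Rpsa passed, 3 of 23, where 31.0% of genes did. No pair passed together in any comparison. The signs of snoRNA and host were alike in 13 of 27 pairs in osteoblasts with tumor, and in 11 of 27 in endothelial cells with tumor.

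**Figure D5:**
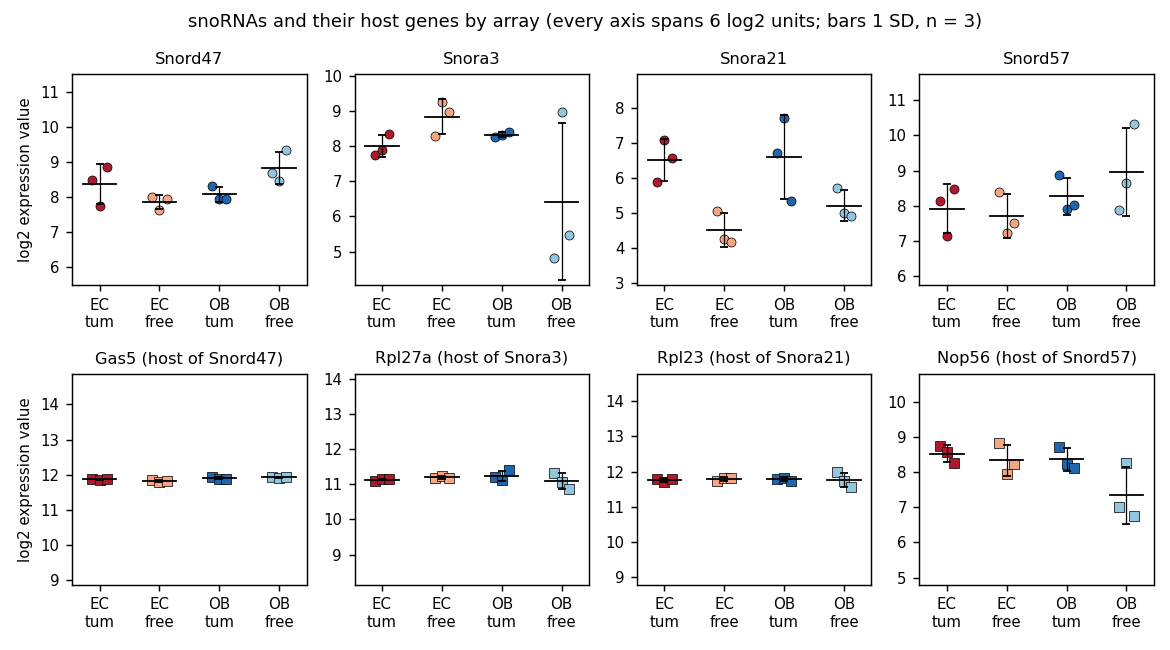
log2 expression values (vertical axis) of 4 snoRNAs (top row, circles) and of their hosts (bottom row, squares) on each array, in tumor-bearing (tum) and tumor-free (free) endothelial cells (EC) and osteoblasts (OB), with means and bars of 1 SD (n = 3). Axes span equal log2 ranges, and Gas5 stays between 11.79 and 11.94 while Snord47 ranges from 7.64 to 9.35.

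Gas5, the non-coding host of Snord47, measured 11.86, 11.79 and 11.82 in tumor-free endothelial cells and 11.94, 11.90 and 11.93 in tumor-free osteoblasts. Its log2 difference was -0.10, beside -0.96 for Snord47. Rpl27a, host of Snora3, measured 11.18, 11.25 and 11.17 in tumor-free endothelial cells and 11.32, 11.08 and 10.88 in tumor-free osteoblasts, a log2 difference of 0.10 beside 2.42. Rpl23, host of Snora21, differed by -0.03 between tumor-bearing and tumor-free endothelial cells, beside 2.01. Nop56, which encodes a core protein of C/D box particles and hosts Snord57, measured 8.73, 8.24 and 8.13 in tumor-bearing and 7.0, 8.26 and 6.76 in tumor-free osteoblasts. Its log2 difference was 1.03, while Snord57 had -0.69, with 8.88, 7.91 and 8.01 in tumor-bearing and 7.89, 8.66 and 10.33 in tumor-free osteoblasts.

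snoRNAs of 1 host often had differences of opposite sign. In the 10 hosts with 2 measured snoRNAs, both had the same sign in 4 hosts in either tumor comparison. The median SE over the tested snoRNAs was 0.52, so these signs cannot show whether the 2 snoRNAs of a host moved together. The pair in Snhg3, Snora73a and Snora73b, differed by 0.76 and 0.91 in osteoblasts with tumor and by -0.06 and 0.38 in endothelial cells, where the sign of Snora73a turned without tumor-bearing replicate 2 (0.37). In Ncl, Snora75 and Snord82 differed by 1.97 and -0.30 in osteoblasts and by 1.10 and 0.75 in endothelial cells, and Snord82 in osteoblasts turned to 0.19 without tumor-free replicate 1.

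No gene tested for a core protein of the snoRNA particles passed in any of the 5 comparisons. Of all genes tested, 4.59% passed in osteoblasts with tumor, 0.0241% in endothelial cells with tumor and 0.209% for the difference between tumor effects. Between cell types 31.0% passed in tumor-free and 14.9% in tumor-bearing mice. Of the C/D box core, 4 genes were tested (limma). They are Fbl (fibrillarin), Nop56, Nop58 and Snu13, and in osteoblasts with tumor their log2 differences were 0.35, 1.03, 0.99 and 0.14. Of the H/ACA box core, Dkc1 (dyskerin, the pseudouridine synthase), Nhp2, Nop10 and Gar1 had 0.28, 0.37, 0.11 and 0.46 there. At an unadjusted p under 0.05 Nop56 and Gar1 counted in osteoblasts with tumor, where 24.4% of all genes tested did. Nop56 and Snu13 counted between cell types in tumor-free mice, where 45.0% did. Nop10 counted between cell types in tumor-bearing mice, where 25.8% did. The mean of the 4 C/D box core genes was 9.04 to 9.16 on tumor-bearing osteoblast arrays and 8.66, 8.82 and 7.99 on tumor-free ones.

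Of 9 assembly factors tested, 1 passed, in a comparison where 18.2% of genes were called higher. Rpap3, a subunit of the chaperone complex that loads the core proteins, was higher in tumor-free endothelial cells (5.66 ± 0.36) than in tumor-free osteoblasts (4.67 ± 0.42, SD, n = 3 each), a log2 difference of 0.99 with an adjusted p of 0.0320 (limma). Of 20 ribosome biogenesis genes tested, Polr1c, a subunit of RNA polymerases I and III, was higher in osteoblasts with tumor (7.87 ± 0.22) than without (6.92 ± 0.29), a log2 difference of 0.96 with an adjusted p of 0.0316 (limma), 1 of 20 where 4.01% of genes were called higher. In tumor-free endothelial cells Polr1c, Ubtf, Emg1 and Imp4 were higher than in tumor-free osteoblasts, by 0.90, 0.46, 0.84 and 0.85 log2 units, 4 of 20 where 18.2% of genes were. No gene of that list passed in endothelial cells with tumor or between cell types in tumor-bearing mice, where 0.0241% and 14.9% of genes did.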

How the data were processed

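RNA was amplified as cDNA from sorted cells and hybridised to Affymetrix arrays, per the labels' protocols. The deposited table holds log2 values of 34760 probe sets on 12 arrays. Per the submitters' processing notes affy was used. Neither its version nor how background and arrays were adjusted is stated in the labels. Array medians were 5.21 to 5.41. The number of arrays limits the precision. The labels do not say whether a replicate was 1 mouse or a pool, and the p-values reflect only the scatter among these arrays, which may be technical.

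Gene names come from the annotation of the array (21640 probe sets with 1 symbol, 1321 with several, 11799 unlisted). Tests used limma 3.58.1 in R 4.3.3, with 1 mean per group, 8 residual and 2.89 prior degrees of freedom, no replicate block, two-sided, and Benjamini-Hochberg adjustment over 12430 genes at 0.05. Another 7507 genes were below the filter. The steps were tested on simulated data. Hosts were assigned by span alone, as the smallest gene containing the snoRNA, since strand was not in the gene table used. Alternatives were quantile normalization, median centering, no filter or a filter at the 70th percentile, averaged probe sets, an intensity trend, array quality weights, the compared groups alone, a replicate block and leaving out each array. The text names snoRNAs past the threshold, up to 10 each way per comparison, the 3 of each kind with the largest and smallest SD, those next to the threshold, their hosts, the snoRNA-binding proteins and Snord49b. Others, such as Snord61, Snord33, Snord87, Snora31 and the ribosome biogenesis genes, were named after their values were seen. Members and lists were chosen with earlier results of these data known. The hosts of some snoRNAs are not reported here.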

Additional observations from a re-analysis of the deposited data

How the results depend on the processing

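Of 989 recomputed values of named snoRNA differences, 14 changed direction, all of them of differences that had not passed. With array quality weights these were Snord82 in osteoblasts with tumor (0.06), Snord35a and Snora73a in endothelial cells with tumor (-0.42 and 0.35) and Snord49b between cell types in tumor-bearing mice (-0.15). With single arrays left out, Snord49a ran from -0.25 to 1.61 (3 arrays turned it) and Snord82 from -0.73 to 0.19 (2 arrays) in osteoblasts with tumor, Snord35a from -0.66 to 0.85 (2 arrays) and Snora73a from -0.45 to 0.39 (2 arrays) in endothelial cells with tumor, and Snord49b from -0.21 to 0.54 (1 array) between cell types in tumor-bearing mice. The median differences over all snoRNAs moved by less than the spread between arrays (SD of the array medians, 0.27). That spread is larger than the medians themselves, 0.24 in both tumor comparisons and 0.24 and 0.13 between cell types. Staying within it therefore does not show that they were stable. The median of the difference between tumor effects, -0.09, ran from -0.27 to 0.04 and so crossed zero. In osteoblasts with tumor, Snord49b no longer passed with the replicate block, median centering, array quality weights or the compared groups alone, leaving 0 snoRNAs in place of 1, and leaving out single arrays gave 0 to 3. In endothelial cells with tumor, array quality weights gave 2 snoRNAs in place of 0, where 3.61% of genes passed in place of 0.0241%. For the difference between tumor effects, leaving out single arrays gave 0 to 2 in place of 0. The share of all genes was then 0% to 4.38%, in place of 0.209%. Between cell types in tumor-free mice the compared groups alone gave 2 in place of 6, and leaving out single arrays 1 to 8. The share of all genes was 15.4% in place of 31.0%, and 18.2% to 31.5% without single arrays. Between cell types in tumor-bearing mice array quality weights gave 4 and the compared groups alone 3 in place of 1, and leaving out single arrays 1 to 2. The cause was not tested.

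Same-numbered replicates of different groups did not deviate together (correlations of -0.260 to 0.095 over 12 pairs). Such correlations cannot show whether samples came from the same mice, and the sample titles do not say. With the replicate block Snord49b had a log2 difference of -1.86 and an adjusted p of 0.0714 (limma) in osteoblasts with tumor. In that fit 6 snoRNAs passed between cell types in tumor-free mice, where 26.8% of genes did.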
